A study of Equus caballus with 8 samples.

Results

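Chemokines, interleukins, the members of the TNF superfamily and the receptors of all 3 were described in horse mesenchymal stem cells grown from bone marrow (BM-MSCs). The genes were taken by symbol alone: CXCL, CCL, CXCR, CCR, ACKR, TNFSF and TNFRSF genes with a number, and IL genes with a number that name a ligand or a receptor. CXCL9, CXCL10, CXCL11, CXCL12, IL6, IL6R, IL11 and IL11RA were left out. This gave 74 of the 15266 named genes in the table: 24 of the chemokine family, 28 of the interleukin family and 22 of the TNF family. The rule used symbols and no measured value.

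The cells were grown from sternal marrow of 4 adult horses, labelled D, J, L and W, which the methods describe as Thoroughbreds or Thoroughbred crosses, with as many mares as geldings. The marrow of each horse was divided between cultures without added TGF-β2 and cultures with 1 ng/ml recombinant human TGF-β2 from isolation to passage 3 or 4 (for 3 passages by the methods), so that both groups held 1 library of each horse. All cultures had fetal bovine serum, and by the methods basic fibroblast growth factor as well. Poly(A)-selected RNA was sequenced, and 39184554 to 57228675 reads were counted per library. Values are normalized counts, which are gene counts divided by a size factor per library. They are not divided by gene length, so that levels are compared between libraries and not between genes. The floor of 3 reads, below which a level was not told from 0, was 2.02 to 3.60 normalized counts and covers counting error only.

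Chemokines are small secreted proteins that set up gradients for migrating leukocytes and act on G-protein-coupled receptors. The atypical chemokine receptors (ACKR) bind chemokines without G-protein signalling and mostly take them up. Many interleukins signal through paired receptor chains to JAK kinases and STAT factors or, for the IL-1 and IL-17 families, to NF-κB, as do most receptors of the TNF superfamily. Others do not, such as IL34, which acts on the CSF1 receptor. Marrow stromal cells are a known source of chemokines and of cytokines that act on blood-forming and immune cells.

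Of 7 stromal markers chosen for this check 6 were listed, without LEPR, and the cells carried these 6. ITGB1, CD44, THY1, ENG, NT5E and PDGFRB had no library at 0, THY1 was called lower with TGF-β2 (log2 fold change -2.21, limma adjusted p = 0.00203), and their summed level ran from 161816 to 355467 in untreated and from 172849 to 271837 in treated libraries. Of 12 leukocyte markers 8 were listed. Their summed level ran from 526 to 2884 normalized counts without and from 393 to 796 with TGF-β2, mostly CD68. PTPRC, the pan-leukocyte marker CD45, had 1.74, 109.7, 41.5 and 26.4 normalized counts in the untreated libraries of horses D, J, L and W and 1.19, 3.21, 23.0 and 7.21 in the treated ones. CD3E, a T cell marker, had 0, 112, 0 and 16.2 in untreated libraries and no read in any treated library. SPI1 and CSF1R, markers of myeloid cells, were both at 1.35, under the floor, in the untreated library of J and highest in that of L, at 52.8 and 147. CD68, also a myeloid marker, was highest in untreated J instead, with 451, 2437, 739.7 and 659 normalized counts in untreated and 362, 685, 495 and 515 in treated libraries. LAPTM5 and ITGB2 were called lower with TGF-β2, with log2 fold changes of -2.22 and -1.48 (limma adjusted p = 0.0259 and 0.0347, or 0.306 and 0.256 without the horse as a block). ITGAL, the remaining listed leukocyte marker, differed less and was not called (log2 fold change -0.42, limma adjusted p = 0.346). It had 38.3, 53.9, 40.5 and 21.3 normalized counts in untreated and 23.8, 22.5, 48.3 and 20.4 in treated libraries. In bulk RNA, fewer cells of a type and less RNA per cell cannot be told apart, and the part of these few leukocyte reads in the results below was not tested. HBA, the listed erythroid marker, ran from 6.09 to 208 normalized counts, and the endothelial markers CDH5 and KDR summed to 7.10 to 55.7, KDR being called higher with TGF-β2 (log2 fold change 2.27).

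TGF-β2-treated BM-MSCs had lower transcript levels for more of these genes than higher ones. Of the 74 genes, 63 passed the filter of 10 normalized counts in 4 or more of the 8 libraries. Limma, with the horse as a block, called 18 of them lower and 6 higher, at a Benjamini-Hochberg adjusted p under 0.05 over all genes tested and an absolute log2 fold change over 1. That is 28.6% lower and 9.52% higher, where 7.31% of all 14907 tested genes were called lower and 6.83% higher (14.1% in either direction). The median log2 fold change was -0.61 over the 63 genes and 0.01 over all tested genes. Without horse J the medians were -0.38 and 0.00, with 37 of the 63 genes negative, against 44 with all horses. Treated libraries all lay below the untreated ones in 17 of the 63 genes (27.0%) and all above them in 3 (4.76%), against 13.9% and 13.9% of all tested genes. The 17 include CCR7 and CCL11, which passed the filter only through untreated libraries. The chemokine family had 6 genes lower and 2 higher among 17 tested. In the interleukin family 8 of 26 were lower and none higher, and neither DESeq2 nor edgeR called any higher (at an unadjusted p under 0.05 without a fold threshold, limma and edgeR had 0 higher and DESeq2 1). The TNF family had 4 lower and 4 higher among 20. Median log2 fold changes were -0.61, -0.68 and -0.25 in the 3 families.

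The counts depended on the model and on single horses. Without the block, 13 genes were called lower and 5 higher, and of all 14907 tested genes 875 lower and 834 higher. With the block, DESeq2 on the recovered reads called 24 lower and 6 higher, and edgeR 15 and 4. Over all 14907 tested genes DESeq2 called 1231 lower and 1112 higher, and edgeR 1069 and 990. The genes that DESeq2 called and limma did not were ACKR4, IL12RB1, TNFRSF14, TNFRSF21, TNFSF11 and TNFSF13B, all lower. With all libraries scaled to equal totals, 22 were lower and 4 higher, while the median of all genes moved to -0.30 and the share of higher calls among all genes from 48.3% to 27.6%. Without horse J, whose untreated library stood apart in these genes, 20 were lower and 8 higher (31.7% and 12.7%, against 8.71% and 7.67% of all tested genes), and 23 of the 24 genes were called with and without that horse. Without horse D or without horse W, 10 were called lower and none higher, although 5 and 4 genes were higher at an unadjusted limma p under 0.05 with a log2 fold change over 1. Calls fell over all 14907 tested genes as well. There 585 were lower and 588 higher without D, and 533 and 547 without W, against 1090 and 1018 with all horses. The 9 genes IL16, ACKR3, CCR7, CCL11, TNFSF13, CXCL14, ACKR2, TNFRSF19 and IL13RA1 were called with any 1 horse left out. Of the 63 genes, CCR7 and CCL11 reached 10 normalized counts in untreated libraries alone, so they passed the filter only through the group where they were high. Their calls are no support for the counts of lower genes, in all families or in the chemokine family. Their lack of overlap is no support for the count of genes with all treated libraries below. CCL19, IL7, IL2RG and TNFRSF19 were under 10 in part of the group where they were low. They passed mostly through the other group, and their calls are weak support for the counts.

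**Figure D1:**
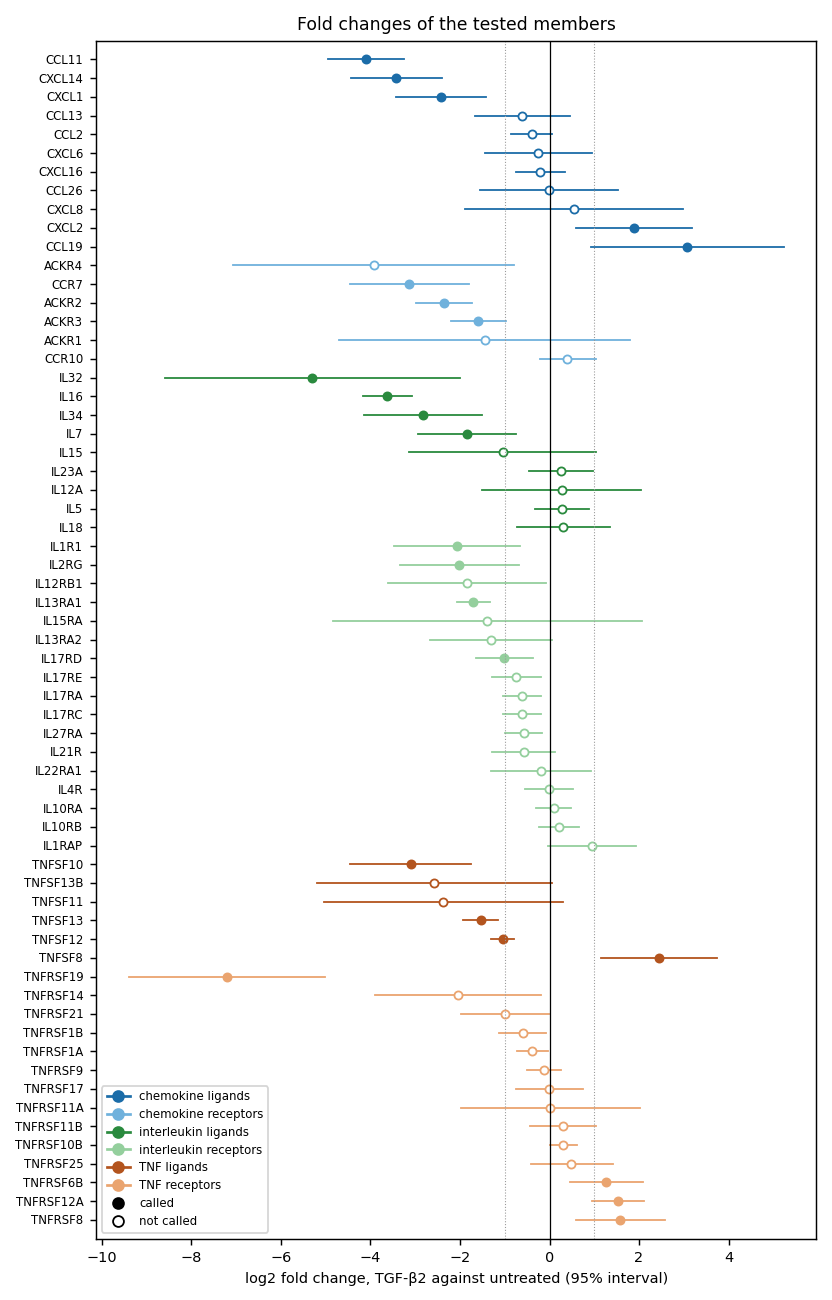
Log2 fold change of the 63 tested genes, treated against untreated, with the 95% interval from limma with the horse as a block (4 horses). Colours give the 6 classes, filled points the 24 called genes, and the dotted lines a log2 fold change of -1 and 1; TNFRSF19 lies farthest to the left at -7.21 and CCL19 farthest to the right at 3.08.

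In the chemokine ligands, CCL11, CXCL14 and CXCL1 fell and CXCL2 and CCL19 rose. Values are given throughout in the order of horses D, J, L and W, and each log2 fold change with its standard error (SE) over 4 horses. CCL11, the eosinophil attractant eotaxin, had 11.3, 189, 104 and 41.6 normalized counts in untreated libraries and 0, 9.64, 2.30 and 2.40 in treated ones. The groups did not overlap, although the untreated level differed widely between horses, and 3 of the 4 treated libraries were under the floor of 3 reads. In limma CCL11 had a log2 fold change of -4.10 (SE 0.34, limma adjusted p = 0.00207), and the change ran from -4.99 to -3.62 between horses. CXCL14, which is expressed by many epithelial and stromal tissues, had 132, 140.0, 123 and 503 normalized counts without TGF-β2 and 20.2, 11.8, 17.2 and 16.8 with it. All treated libraries were low and the untreated library of W was well above the other 3. CXCL14 had a log2 fold change of -3.43 (SE 0.41, limma adjusted p = 0.00456).

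CXCL1, CXCL2, CXCL6 and CXCL8 encode neutrophil attractants that act on CXCR2 and lie near each other on 1 chromosome in RefSeq's TB-T2T assembly. Of these neighbours 1 was lower, 1 higher and 2 uncalled. CXCL1 had 229, 1009, 71.6 and 188 normalized counts in untreated and 45.3, 79.2, 31.0 and 31.2 in treated libraries. Every horse was lower, with the untreated library of J far above the rest, and that of L slightly below treated J. CXCL1 had a log2 fold change of -2.42 (SE 0.40, limma adjusted p = 0.0108). Without horse D or horse W the adjusted p of CXCL1 was 0.0550 and 0.0642. CXCL2 went the other way, from 13.9, 77.4, 19.8 and 12.2 to 67.9, 89.9, 66.7 and 142 normalized counts. It was higher in all 4 horses, least in J, where the untreated library already held 77.4. In limma CXCL2 had a log2 fold change of 1.89 (SE 0.52, limma adjusted p = 0.0434). The call of CXCL2 was lost after scaling to equal totals (log2 fold change 1.59, adjusted p = 0.0502), with edgeR (adjusted p = 0.0579) and without horse D, L or W (limma adjusted p = 0.152, 0.103 and 0.136). CXCL8, at 4.35, 316, 4.71 and 3.04 in untreated and 10.7, 32.1, 19.5 and 21.6 in treated libraries, was higher in horses D, L and W and lower in J. Over 4 horses it had a log2 fold change of 0.55 (95% interval -1.88 to 2.99, limma adjusted p = 0.698), and without horse J one of 1.82 (adjusted p = 0.0266). Leaving out horse D, L or W gave CXCL8 a limma adjusted p of 0.866, 0.951 and 0.960. CXCL6 had 709, 4112, 736 and 818 normalized counts untreated and 1035, 975, 615 and 1394 treated, with untreated J far above the other 7 libraries. These 4 genes are closely related in sequence, so reads shared between them are uncertain in counts of unique hits.

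CCL19, a ligand of CCR7 in lymphoid tissue, had 0, 25.6, 0 and 2.03 normalized counts in untreated libraries and 17.9, 23.6, 29.9 and 27.6 in treated ones. It was at 0 in untreated D and L and under the floor in W, while untreated J lay within the treated range. For CCL19 the log2 fold change was 3.08 (SE 0.86, limma adjusted p = 0.0451). Its size depended on the pseudocount and was 3.62 with 0.5 and 1.78 with 5. The adjusted p of CCL19 was 0.0560 without the block and 0.132 with edgeR. Leaving out horse D, L or W gave a limma adjusted p of 0.162, 0.128 and 0.156. Without horse J, the log2 fold change of CCL19 was 4.14 (adjusted p = 0.00451).

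CCL2, CCL26 and CXCL16, the 3 chemokine ligands with the highest counts, were not called. CCL2, the monocyte attractant MCP-1, had 5212, 50361, 5573 and 6255 normalized counts without and 3694, 25605, 4661 and 6904 with TGF-β2. Horse J stood far above the others in both groups. The log2 fold change of CCL2 was -0.40, with a 95% interval of -0.86 to 0.06 and a limma adjusted p of 0.157. For CCL26 (eotaxin-3) the values were 5242, 34269, 851 and 10314 normalized counts untreated and 11654, 8783, 2572 and 5791 treated. It was higher with TGF-β2 in D and L and lower in J and W, and the interval of its log2 fold change, -1.55 to 1.52, was wide. CXCL16, a membrane-bound chemokine that binds CXCR6, had 1469.6, 4753, 1320.1 and 2230.1 normalized counts untreated and 1659, 2377, 1537 and 1911 treated. The 95% interval of its log2 fold change, -0.75 to 0.34, lay within the fold threshold. CCL13, the remaining tested chemokine ligand, had a log2 fold change of -0.61 (limma adjusted p = 0.319).

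Among the chemokine receptors, CCR7, ACKR2 and ACKR3 fell, and no receptor was called higher by limma, DESeq2 or edgeR (0 of 6, also at an unadjusted limma p under 0.05). The 6 receptors analysed here were CCR7, CCR10 and ACKR1 to ACKR4. ACKR2, a scavenger of inflammatory CC chemokines, had 309, 188, 508 and 451 normalized counts in untreated and 46.5, 65.3, 74.7 and 80.5 in treated libraries. The groups were far apart and all 4 horses were lower. ACKR2 had a log2 fold change of -2.36 (SE 0.25, limma adjusted p = 0.00374). ACKR3, also named CXCR7, takes up CXCL12 and CXCL11. It had 10431, 9838, 25869 and 13448 normalized counts without and 4513, 3469, 4479 and 6118 with TGF-β2, again without overlap. In limma ACKR3 had a log2 fold change of -1.59 (SE 0.25, limma adjusted p = 0.00896). CCR7, which guides lymphocytes and dendritic cells towards CCL19, had few reads, with 27.8, 14.1, 16 and 29.4 normalized counts in untreated and 4.76, 2.14, 1.15 and 0 in treated libraries. The treated libraries of J, L and W were under the floor. For CCR7 the log2 fold change was -3.13 (SE 0.54, limma adjusted p = 0.0116). Its ligand CCL19 changed in the opposite direction, a pair that was chosen after the values were seen.

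ACKR4, which binds CCL19, CCL21 and CCL25, had 45.2, 1014, 34.9 and 71.0 normalized counts in untreated and 10.7, 1.07, 10.3 and 7.21 in treated libraries. The groups did not overlap and all horses were lower, with log2 changes of -1.98, -8.94, -1.66 and -3.13 in single horses. For ACKR4 the log2 fold change was -3.93 (SE 1.26, limma adjusted p = 0.0650). It was called without the block (adjusted p = 0.0336) and without horse J (log2 fold change -2.26, adjusted p = 0.0115). DESeq2 with the block also called ACKR4 (DESeq2 adjusted p = 0.0216). Without horse D, L or W the limma adjusted p of ACKR4 was 0.122, 0.0831 and 0.167. ACKR1, the Duffy antigen receptor, had 890.1, 171, 691 and 362 normalized counts untreated and 1003, 149, 1349.6 and 2.40 treated. The treated library of W was under the floor, at 2.40, while L was higher with TGF-β2 and D and J differed little. Its log2 fold change of -1.45 had an interval of -4.70 to 1.80, and without horse W it was 0.31 (limma adjusted p = 0.460). CCR10 had a log2 fold change of 0.40 (limma adjusted p = 0.266).

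**Figure D2:**
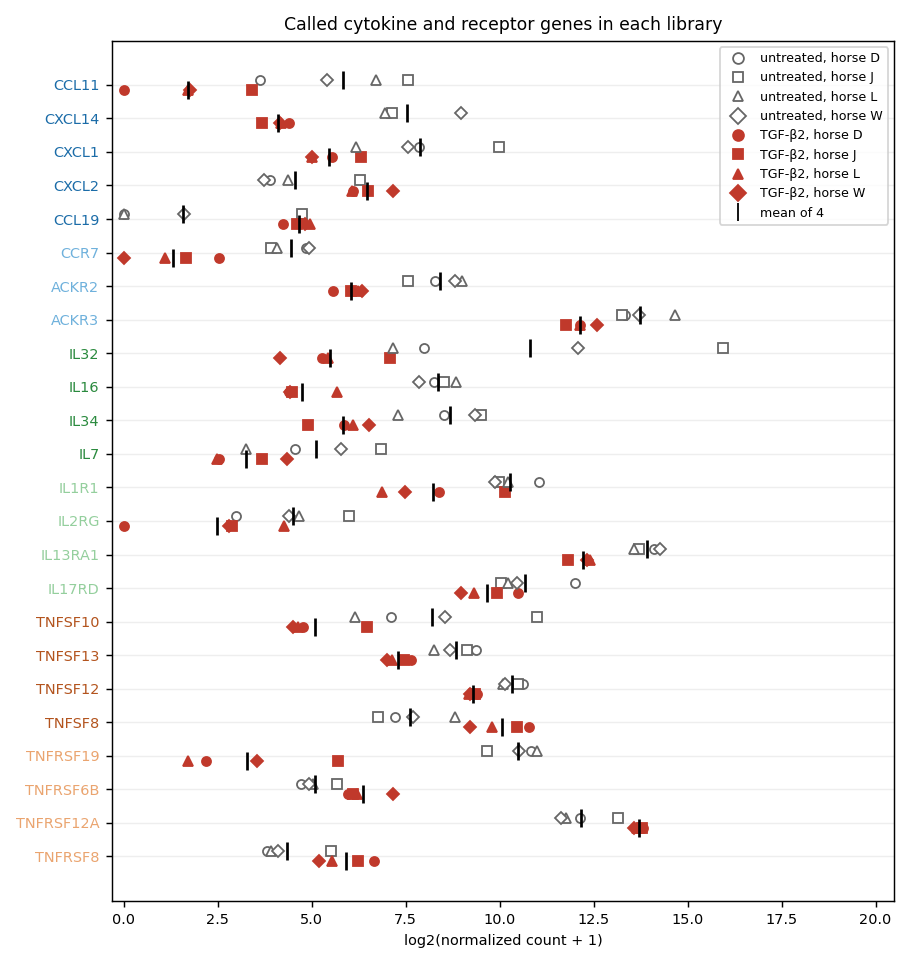
Level of the 24 called genes in each library on a log2(normalized count + 1) axis, untreated in open grey and TGF-β2-treated in red, with 1 symbol per horse and a bar at the mean of 4. Gene names are coloured by class as in the plot of fold changes; the treated mean lies left of the untreated one for the 18 genes called lower, and the open square of horse J is the rightmost point for IL32, CXCL1 and TNFSF10.

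The interleukin ligands IL16, IL34, IL32 and IL7 fell. IL16, which is cleaved from a precursor and attracts CD4+ cells, had 307, 368, 456 and 232 normalized counts in untreated and 20.2, 21.4, 50.6 and 20.4 in treated libraries, without overlap. The 4 horses changed by -3.86, -4.04, -3.15 and -3.45 on the log2 scale. IL16 had a log2 fold change of -3.62 (SE 0.22, limma adjusted p = 0.00122). IL34 is a second ligand of the CSF1 receptor and supports macrophages. Its values were 367, 728, 157 and 652 without and 57.2, 28.9, 67.8 and 91.3 with TGF-β2, which did not overlap. For IL34 the log2 fold change was -2.82 (SE 0.53, limma adjusted p = 0.0151). Without horse D or W the adjusted p of IL34 was 0.0666 and 0.0773. CSF1, the other ligand of that receptor, which the symbols did not match, had 15657, 49781, 11784 and 22879 normalized counts untreated and 4221, 9069.9, 2731 and 4836 treated and also fell, with a log2 fold change of -2.17 (limma adjusted p = 0.00101).

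IL32, an intracellular and secreted cytokine linked to inflammation, was very unevenly expressed. Its untreated libraries held 255, 62379.9, 142 and 4382 normalized counts and its treated ones 38.1, 136, 42.5 and 16.8. Every treated library lay below every untreated one, but the untreated level in J was 14.2 times that of the next library. For IL32 the log2 fold change was -5.30 (SE 1.32, limma adjusted p = 0.0329) and ran from -8.83 to -1.72 between horses. The adjusted p of IL32 was 0.0652 without the block, 0.0622 with edgeR, 0.0698 without horse D and 0.136 without horse W. Without horse J it was 0.0485, with a log2 fold change of -4.12. IL7, the lymphocyte survival factor that stroma supplies, had 22.6, 114, 8.48 and 53.8 normalized counts untreated and 4.76, 11.8, 4.60 and 19.2 treated. All 4 horses were lower while the groups overlapped. IL7 had a log2 fold change of -1.85 (SE 0.44, limma adjusted p = 0.0290), and the adjusted p was 0.131 without the block, 0.111 without horse D and 0.0972 without horse W.

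IL15, which sustains NK cells and memory T cells, was not called. It had 184, 2921, 58.4 and 321 normalized counts in untreated and 179, 164, 132 and 143 in treated libraries, with untreated J far above the other 7 libraries and untreated L lowest. The log2 fold change was -1.05 with a 95% interval of -3.14 to 1.04, and without horse J it was -0.01 (limma adjusted p = 0.983). Its receptor chain IL15RA was also highest in untreated J and next in untreated W, with 13.9, 2604, 7.54 and 119 normalized counts, against 34.5, 27.8, 25.3 and 30.0 in treated libraries. The log2 fold change of IL15RA turned from -1.39 (limma adjusted p = 0.479) to 0.31 without horse J (adjusted p = 0.768). IL5, IL12A, IL18 and IL23A had log2 fold changes of 0.28, 0.27, 0.31 and 0.25, and none was called.

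Of the interleukin receptors, IL13RA1, IL1R1, IL2RG and IL17RD fell. IL13RA1 forms the type II receptor for IL-4 and IL-13 with IL4R. It had 17684, 13341, 12244 and 19654 normalized counts without and 5129, 3583, 5459 and 5134 with TGF-β2, with no overlap and a change of -1.94 to -1.17 between horses. IL13RA1 had a log2 fold change of -1.70 (SE 0.15, limma adjusted p = 0.00237). IL4R, the partner chain, had 11442, 11544, 5899.6 and 5780.1 normalized counts untreated and 10226, 6902, 8096 and 7535 treated. The groups overlapped fully, and the 95% interval of the log2 fold change was -0.55 to 0.52 (limma adjusted p = 0.961). IL13RA2, a decoy receptor for IL-13, had 67.9, 39.0, 52.8 and 9.13 normalized counts untreated and 7.15, 11.8, 40.2 and 8.41 treated. All 4 horses were lower, by little in L and W. In limma IL13RA2 had a log2 fold change of -1.30 (SE 0.54, limma adjusted p = 0.123).

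IL1R1, the signalling receptor of IL-1, had 2126, 1004, 1186 and 949 normalized counts in untreated and 335, 1128, 116 and 177 in treated libraries. Horses D, L and W were much lower with TGF-β2, whereas J was slightly higher. For IL1R1 the log2 fold change was -2.06 (SE 0.57, limma adjusted p = 0.0433), and without horse J it was -2.81 (adjusted p = 0.00132). The call of IL1R1 was lost without the block (adjusted p = 0.0525), with edgeR (0.0536) and without horse D, L or W (0.158, 0.124 and 0.160). IL1RAP, the accessory chain of that receptor, went in the other direction in D, L and W. It had 67.9, 181, 145 and 100.4 normalized counts untreated and 148, 125, 479 and 289.5 treated, and the log2 fold change was 0.95 (limma adjusted p = 0.122), or 1.45 without horse J (adjusted p = 0.00557). Leaving out horse D, L or W gave IL1RAP a limma adjusted p of 0.293, 0.321 and 0.338.

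IL17RD, an inhibitor of FGF signalling as well as a member of the IL-17 receptor family, had 4089, 1056, 1203 and 1415 normalized counts untreated and 1427, 974, 635 and 502 treated. Every horse was lower but hardly in J. For IL17RD the log2 fold change was -1.01 (SE 0.25, limma adjusted p = 0.0332), just past the threshold. Without the block the adjusted p of IL17RD was 0.163, and without horse D, L or W it was 0.131, 0.0842 and 0.137. IL17RA, the shared signalling chain, had 1936, 2996, 2077 and 1781 normalized counts untreated and 1389, 1249, 1637 and 1356 treated, without overlap, and a log2 fold change of -0.62 (SE 0.17, limma adjusted p = 0.0457), short of the fold threshold. IL17RC and IL17RE, direct neighbours in the TB-T2T assembly, had log2 fold changes of -0.61 and -0.74 (limma adjusted p = 0.0449 and 0.0521), and in both the treated libraries lay below the untreated ones.

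IL2RG, the common γ chain used by the receptors of IL-2, IL-7 and IL-15, had few reads, with 6.96, 62.6, 24.5 and 20.3 normalized counts in untreated and 0, 6.42, 18.4 and 6.01 in treated libraries. All 4 horses were lower and the groups overlapped. In limma IL2RG had a log2 fold change of -2.02 (SE 0.53, limma adjusted p = 0.0385). The call of IL2RG was lost without the block (adjusted p = 0.164), with edgeR (0.0735) and without horse D, J or W (0.138, 0.0766 and 0.118). IL12RB1, a chain of the IL-12 and IL-23 receptors, had 21.8, 199, 20.7 and 65.9 normalized counts untreated and 9.53, 7.49, 14.9 and 27.6 treated. It was lower in all 4 horses, mostly in J, and its log2 fold change was -1.84 (SE 0.71, limma adjusted p = 0.102). DESeq2 with the block called IL12RB1 lower (DESeq2 adjusted p = 0.0401). IL27RA passed the adjusted p but not the fold threshold, with a log2 fold change of -0.58 (limma adjusted p = 0.0463). IL10RA, IL10RB, IL21R and IL22RA1 had log2 fold changes of 0.10, 0.21, -0.57 and -0.19, and none was called.

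The TNF ligands TNFSF10, TNFSF12 and TNFSF13 fell and TNFSF8 rose. TNFSF12 (TWEAK) had 1563, 1425, 1098 and 1128 normalized counts in untreated and 673, 653, 579 and 589.9 in treated libraries. The treated libraries were nearly alike and all lay below the untreated ones. TNFSF12 had a log2 fold change of -1.05 (SE 0.10, limma adjusted p = 0.00286), and without horse D it was -0.99, short of the fold threshold. TNFRSF12A (Fn14), the receptor of TWEAK, went the other way, from 4527, 9046, 3494 and 3175 to 14400.3, 14055, 12914 and 12265 normalized counts. Here too the groups did not overlap, with untreated J closest to the treated level. TNFRSF12A had a log2 fold change of 1.54 (SE 0.23, limma adjusted p = 0.00880). Without horse D or W its adjusted p was 0.0512 and 0.0550. TNFSF13 (APRIL, a B cell and plasma cell factor) is the direct neighbour of TNFSF12 in the TB-T2T assembly. It had 657, 560.2, 302 and 407 normalized counts untreated and 198, 176, 139 and 127 treated, without overlap, and a log2 fold change of -1.54 (SE 0.16, limma adjusted p = 0.00339).

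TNFSF10 (TRAIL, which induces apoptosis) had 137, 2025, 70.7 and 374 normalized counts in untreated and 26.2, 87.8, 24.1 and 21.6 in treated libraries. It was lower in all 4 horses, and untreated J was 5.41 times the next untreated library. For TNFSF10 the log2 fold change was -3.10 (SE 0.54, limma adjusted p = 0.0121), with an adjusted p of 0.0534 without the block and of 0.0689 without horse W. TNFRSF10B, its death receptor, had a log2 fold change of 0.31 (95% interval 0.00 to 0.61, limma adjusted p = 0.111).

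TNFSF8 (CD30 ligand) had 149, 108, 449 and 207 normalized counts without and 1758, 1423, 891 and 593 with TGF-β2. The treated libraries all lay above the untreated ones, with the larger changes in D and J. For TNFSF8 the log2 fold change was 2.44 (SE 0.52, limma adjusted p = 0.0211). TNFRSF8 (CD30), its receptor, had few reads and also rose, from 13.1, 44.4, 14.1 and 16.2 to 101, 73.9, 46.0 and 36.0 normalized counts, with some overlap. TNFRSF8 had a log2 fold change of 1.58 (SE 0.40, limma adjusted p = 0.0334). Without horse D the adjusted p was 0.0886 for TNFSF8 and 0.0899 for TNFRSF8, and without horse W it was 0.0657 and 0.0956. TNFRSF8 was also lost without horse L (adjusted p = 0.0919). This ligand and receptor were set side by side after their values were seen.

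TNFSF11 (RANKL, the osteoclast differentiation factor) differed between horses. It had 596, 33.7, 290.2 and 108 normalized counts in untreated and 51.2, 89.9, 5.75 and 27.6 in treated libraries, lower in D, L and W and higher in J. For TNFSF11 the log2 fold change was -2.37 (SE 1.07, limma adjusted p = 0.146), and without horse J it was -3.62 (adjusted p = 0.0131). Leaving out horse D, L or W gave TNFSF11 a limma adjusted p of 0.365, 0.367 and 0.282. DESeq2 with the block called TNFSF11 lower (DESeq2 adjusted p = 0.0126). Its decoy receptor TNFRSF11B (osteoprotegerin) had 309, 481, 253 and 152 normalized counts untreated and 578, 346, 217 and 299 treated, and its log2 fold change was 0.29 (95% interval -0.44 to 1.03). TNFRSF11A (RANK) lay between 0 and 25.6 normalized counts, with an interval of -1.98 to 2.01. TNFSF13B (BAFF, a B cell survival factor) had 7.83, 639, 16 and 87.3 normalized counts untreated and 8.34, 11.8, 11.5 and 3.60 treated. It was high in untreated J and, less so, in untreated W, and between 3.60 and 16 normalized counts elsewhere. In limma TNFSF13B had a log2 fold change of -2.57 (SE 1.05, limma adjusted p = 0.119). DESeq2 with the block called TNFSF13B lower (DESeq2 adjusted p = 0.0146).

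Among the TNF receptors, TNFRSF19 fell and TNFRSF12A, TNFRSF8 and TNFRSF6B rose. TNFRSF19 (TROY), a receptor of embryonic and stem cell compartments, had 1819, 809, 2039 and 1474 normalized counts in untreated and 3.57, 51.4, 2.30 and 10.8 in treated libraries. The treated library of L was under the floor, and J had both the lowest untreated and the highest treated level. For TNFRSF19 the log2 fold change was -7.21 (SE 0.88, limma adjusted p = 0.00488), and the single horses changed by -8.64, -3.95, -9.27 and -6.96. TNFRSF6B, a secreted decoy receptor for Fas ligand, had 25.2, 50.5, 32.0 and 29.4 normalized counts untreated and 61.9, 67.4, 73.6 and 143 treated. The treated libraries lay just above the untreated ones, with W highest. In limma TNFRSF6B had a log2 fold change of 1.27 (SE 0.33, limma adjusted p = 0.0367). The call of TNFRSF6B was lost after scaling to equal totals (log2 fold change 0.97) and without horse D, L or W (adjusted p = 0.126, 0.0925 and 0.117).

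TNFRSF1A and TNFRSF1B, the receptors of TNF, were not called. TNFRSF1A had 5181, 4230.1, 6015 and 5293 normalized counts without and 3965, 4274, 3514 and 4019.9 with TGF-β2. In limma TNFRSF1A had a log2 fold change of -0.39 (SE 0.14, limma adjusted p = 0.0840), and the 95% interval, -0.73 to -0.04, stayed within the fold threshold. TNFRSF1B had 1058, 1808, 834 and 731 normalized counts untreated and 967, 739, 693 and 439.7 treated and was lower in all 4 horses, with a log2 fold change of -0.60 (SE 0.21, limma adjusted p = 0.0798). TNFRSF14 (HVEM, the receptor of LIGHT) had 40, 949, 35.8 and 68.0 normalized counts untreated and 19.1, 30.0, 23.0 and 21.6 treated. The groups did not overlap, yet untreated J was 14.0 times the next library. For TNFRSF14 the log2 fold change was -2.05 (SE 0.74, limma adjusted p = 0.0881), and without horse J it was -1.09 (adjusted p = 0.0439). Leaving out horse D, L or W gave TNFRSF14 a limma adjusted p of 0.155, 0.0965 and 0.201. DESeq2 with the block called TNFRSF14 lower (DESeq2 adjusted p = 0.0144). The remaining tested TNF receptors, TNFRSF9, TNFRSF17, TNFRSF21 and TNFRSF25, had log2 fold changes from -1.0 for TNFRSF21 to 0.49 for TNFRSF25, and limma called none. DESeq2 with the block called TNFRSF21 lower (log2 fold change -1.02, DESeq2 adjusted p = 0.0423).

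Libraries of 1 group differed from each other in these genes. The untreated library of horse J held the highest value of all 8 libraries in 42 of the 74 genes (56.8%), against 21.6% of all 15266 genes. In 33 of the 74 (44.6%) it was over 2-fold above each of the other 3 untreated libraries (on value + 1), which held for 854 of all genes (5.59%). Of these 33 genes, 14 were chemokine ligands, 1 a chemokine receptor, 6 interleukin ligands, 7 interleukin receptors, 2 TNF ligands and 3 TNF receptors. The untreated library of W came second of its group in 23 of the 33 (69.7%), 2 of them (CCL4 and CCL19) with W under the floor, and in 44.0% of the 854. The same count was 2 of 74 for untreated D, 2 for untreated L and 1 for untreated W. Among the treated libraries it was 9 for J (12.2% against 1.85% of all genes), 0 for D, 3 for L and 1 for W. These counts are descriptions of single libraries, and no test was made.

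**Figure D3:**
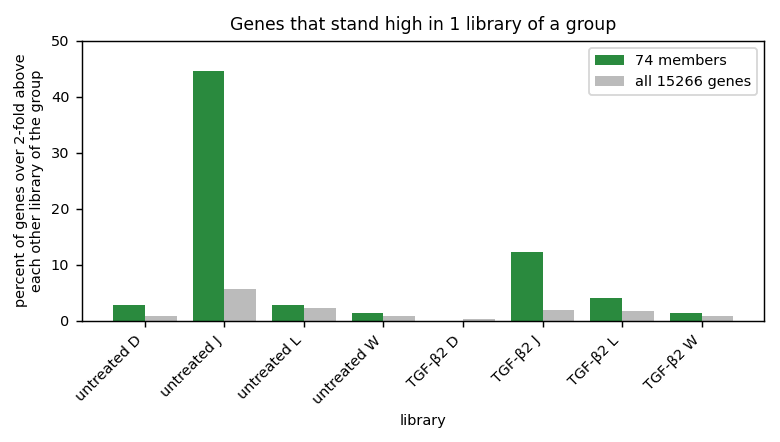
Percent of the 74 genes (green) and of all 15266 genes (grey) that were over 2-fold above each other library of their group, per library. The bar of the untreated library of horse J reaches 44.6% for the 74 genes and 5.59% for all genes; no other library passes 12.2%.

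Of the 33 genes high in untreated J, 24 were tested, 5 of which were called lower (20.8%) and 3 higher (12.5%) with TGF-β2. Of the 854 genes likewise high there, 708 were tested, 18.9% of which were called lower and 8.76% higher. The 5 were CXCL1, IL7, IL32, TNFSF10 and IL2RG, and the 3 were CXCL2, CCL19 and TNFRSF8. The other 9 did not pass the filter, since they were near 0 in most libraries. CCL5 (RANTES), made by T cells and by cells exposed to interferon or TNF, had 14.8, 1526, 4.71 and 93.3 normalized counts in untreated and 3.57, 1.07, 1.15 and 2.40 in treated libraries. CCL17 had 4.35, 212, 2.83 and 35.5 normalized counts untreated and 1.19, 6.42, 2.30 and 1.20 treated. CCL20 had 0.870, 131, 1.88 and 15.2 normalized counts untreated and 1.19, 0, 0 and 4.81 treated. In all of these untreated J was far above the rest and untreated W second.

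CCL1, CCL4, CCL25, IL2RA, IL2RB and TNFRSF18 were also highest in untreated J, with 85.5, 58.6, 80.1, 99.0, 107 and 68.7 normalized counts there. Untreated W came second of the untreated libraries in CCL1, CCL25, IL2RA and IL2RB, and D in TNFRSF18. In CCL4 the other 3 untreated libraries held at most 1 read, so none could be told to be second. CCL4 and CCL25 had no read in any treated library. IL2RA and IL2RB encode chains of the IL-2 receptor on activated T and NK cells. IL2RA and IL15RA are direct neighbours in the TB-T2T assembly, and IL15RA held 2604 normalized counts in untreated J against 119 in untreated W. CD3E was at 112 normalized counts in untreated J and PTPRC at 109.7, the highest of the 8 libraries for both. That library was also highest for CD68, at 2437, and for ITGAL, at 53.9 against 48.3 in treated L. ITGB2 and LAPTM5, at 71.4 and 97.0 in untreated J, were highest in untreated L, and SPI1 and CSF1R were at 1.35. The part of these reads in the levels of untreated J was not tested. The other 2 genes that did not pass the filter were CXCL13, at 1.74, 1.35, 37.7 and 11.2 normalized counts untreated and 0, 58.9, 0 and 4.81 treated, and TNFRSF4 (OX40), at 6.09, 33.7, 31.1 and 14.2 normalized counts untreated and 4.76, 2.14, 3.45 and 2.40 treated. TNFRSF4 was lower in all 4 horses without overlap, and with no filter it was the only further gene of the 74 called.

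In the treated library of J, IL32 was at 136 normalized counts, IL15RA at 27.8, CCL5 at 1.07 and CXCL8 at 32.1. In 9 of the 74 genes (12.2%) J was lower with TGF-β2 and the other 3 horses higher, against 7.85% of all genes. These were CXCL8, CCL19, CCR10, IL12A, IL18, IL23A, IL1RAP, IL10RA and TNFRSF17, of which CCR10 was at 34.3 in both libraries of J and differed by less than rounding. In 4 genes, CXCL13, IL1R1, TNFSF11 and TNFRSF1A, J was higher and the others lower, against 8.59% of all genes, although TNFRSF1A differed by 0.01 in J on the log2 scale. All 4 horses were lower in 30 of the 74 genes (40.5% against 25.7% of all genes) and higher in 6 (8.11% against 25.9%).

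**Figure D4:**
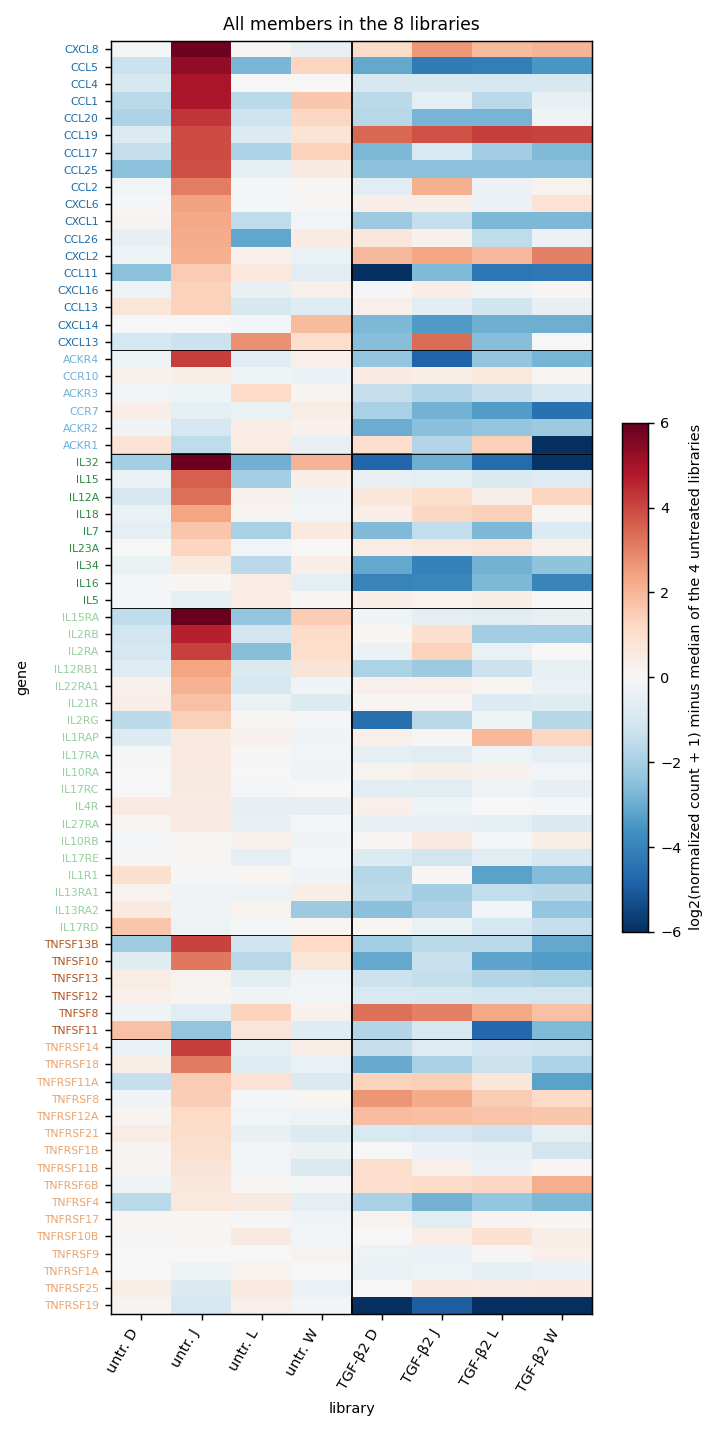
All 74 genes in the 8 libraries, as log2(normalized count + 1) minus the median of the 4 untreated libraries, with the colour scale ending at -6 and 6; genes are grouped by class and sorted by the value in untreated J. The column of untreated J is red for CXCL8, IL32 and IL15RA, and the 4 treated columns are blue for TNFRSF19, IL16 and CCL11.

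Genes of the pathways downstream were counted from chosen lists that hold activators, inhibitors and induced genes alike. Their counts therefore give no direction of pathway activity. Of 43 genes of NF-κB, TNF and IL-1 signalling, 42 were tested, 7 called lower (16.7%) and 2 higher (4.76%), against 7.31% and 6.83% of all tested genes, with a median log2 fold change of -0.35 against 0.01. NFKBIA, the inhibitor and target of NF-κB, had 441, 2317, 421 and 798 normalized counts in untreated and 298, 288, 270.2 and 221 in treated libraries. All 4 horses were lower, most of all J, with a log2 fold change of -1.51 (SE 0.43, limma adjusted p = 0.0479), and an adjusted p of 0.0611 without the block. RELB, NFKBIE, NFKBIZ, IRAK2, IRAK3 and TNFAIP2 were also lower, with log2 fold changes of -1.11, -1.03, -1.77, -2.19, -1.39 and -2.63, NFKBIE not without the block (adjusted p = 0.0890). REL, a subunit of NF-κB, and TNFAIP6, the secreted protein TSG-6 of the hyaluronan matrix, rose. TNFAIP6 had 13.1, 19.5, 53.7 and 65.9 normalized counts untreated and 109.6, 169, 281 and 961 treated, and its log2 fold change was 3.06 (SE 0.27, limma adjusted p = 0.00247). That of REL was 1.65 (SE 0.22, limma adjusted p = 0.00584).

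Of 24 listed genes of JAK-STAT signalling, 2 were called lower and none higher (0 also with DESeq2 and edgeR, and 1 at an unadjusted limma p under 0.05 whatever the fold). They were JAK2, with a log2 fold change of -1.48 (SE 0.25, limma adjusted p = 0.0116), and SOCS3, a feedback inhibitor of cytokine receptors, with -1.85 (SE 0.15, limma adjusted p = 0.00207). The 2 genes are 8.33% of the list, near the 7.31% of all tested genes called lower. The median of the 24 was -0.31. Of the relatives whose symbols the choice left out, 23 were listed and 19 tested, 4 of them lower (21.1%) and 2 higher (10.5%), against the same 7.31% and 6.83%. OSMR, LIFR and IL6ST, the receptor chains of the IL-6 family, fell with log2 fold changes of -2.20, -1.25 and -1.61, as did CSF1, while LIFR was not called without the block (adjusted p = 0.0682). LIF, a ligand of LIFR, rose from 686, 976, 266 and 352 to 1301, 1067, 1534 and 1342 normalized counts, a log2 fold change of 1.38 (SE 0.40, limma adjusted p = 0.0490). RELT, a receptor of the TNF superfamily, rose as well (1.23, limma adjusted p = 0.0107).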

How the data were processed

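RNA of 8 BM-MSC libraries, 4 untreated and 4 TGF-β2-treated, was sequenced. By the methods and the submitters' processing notes, reads were trimmed with Trimmomatic 0.36, aligned to EquCab 3.0 with STAR 2.5.2b and counted as unique gene hits with featureCounts (Subread 1.5.2); the annotation and strand setting are not given in the sources used here. The authors deposited normalized counts, a signal made by dividing gene counts by a size factor per library with DESeq2. Of 15267 rows, 1 lacked a gene name and was not used (0.0281% to 0.0531% of a library's signal).

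Every value was a whole multiple of the library's lowest value, taken as 1 read (100% whole, relative tolerance 1e-06), so reads were recovered. Limma 3.58.1 in R 4.3.3 (eBayes with trend) was run across all genes on log2(normalized count + 1), with the horse as a block. Fold changes on this scale understate changes of low genes. The block rests on the horse named in the labels. Same-horse libraries deviated together from their group means (correlation 0.386 to 0.609). The mean correlation of -0.159 between horses largely follows from the centring on group means, so it adds no support. A call required an adjusted p (Benjamini-Hochberg, over all tested genes) below 0.05 and a log2 fold change beyond 1 in size. Each horse gave 1 culture per arm, so p-values measure the spread between 4 horses. Alternatives were no block, pseudocounts of 0.5 and 5, no filter or 50, TMM, upper-quartile and total scaling, no trend, DESeq2 1.42.0 and edgeR 4.0.16 on recovered reads, an adjusted p under 0.01, no fold threshold and each horse left out. The procedures were tested on simulated data.

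The genes, lists and tests were chosen with earlier results of these data known. Values in every library are given for genes called with or without the block, the 3 with the highest mean count in each class, and uncalled genes with an absolute log2 fold change over 1; others were named when accounting for all 74. Symbols of 71 genes were found in RefSeq's TB-T2T table, used for neighbours only, since the build differs. In it CCR7, TNFRSF12A, ACKR2, ACKR4, TNFSF13B, CXCL16, CCR10, TNFRSF6B, TNFRSF11B and IL13RA2 overlap other protein-coding genes, whose reads cannot be told apart without strand.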

Additional observations from a re-analysis of the deposited data

Results flagged for a closer look

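In 37 of 148 groups of 4 libraries (74 genes, untreated and treated), 1 library stood apart by Dixon's test at its 95% critical value, on normalized counts. That value assumes normally distributed values, which counts on this scale need not be, and the genes share the same libraries. No chance rate can therefore be set beside the 37, and the count over all genes was not made. The untreated library of horse J was the high one in 26 of them. The chemokine values in untreated J were 1009 for CXCL1, 77.4 for CXCL2, 4112 for CXCL6, 316 for CXCL8, 50361 for CCL2, 1526 for CCL5, 212 for CCL17, 131 for CCL20, 80.1 for CCL25, 58.6 for CCL4, 85.5 for CCL1, 25.6 for CCL19 and 1014 for ACKR4. Its interleukin values were 62379.9 for IL32, 2921 for IL15, 2604 for IL15RA, 157 for IL18, 112 for IL23A, 70.0 for IL12A, 107 for IL2RB and 99.0 for IL2RA. In the TNF family untreated J held 2025 for TNFSF10, 639 for TNFSF13B, 949 for TNFRSF14, 68.7 for TNFRSF18 and 44.4 for TNFRSF8.

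The other libraries that stood apart were fewer. In treated J, CCL2 was high at 25605, TNFSF10 at 87.8, CXCL13 at 58.9 and IL2RA at 13.9, and TNFRSF17 was low at 9.64. Treated L was high for IL16 at 50.6 and IL13RA2 at 40.2, and treated W for TNFRSF6B at 143. Of the untreated libraries, W was high for CXCL14 at 503 and TNFRSF9 at 274, and D for IL17RD at 4089.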

How the results depend on the processing

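Limma with the horse as a block called 6 genes higher and 18 lower, and 8 each in the chemokine, interleukin and TNF families. With no replicate block, 17 of the 24 were called and 3 in the interleukin family. The interleukin family had 5 calls with no trend, 5 with edgeR and the replicate block and 4 with edgeR without it. All genes gave 1981, 2059 and 1680 calls in these settings, in that order. Over the 3 families, edgeR without the block called 3 genes higher. A filter at 50 left 5 chemokine calls, and 1592 of all genes, since fewer genes were tested. At an adjusted p under 0.01, 1 gene was higher and 9 lower, with 4 chemokine, 2 interleukin and 4 TNF calls. Of all genes, 1116 were called at that threshold, 567 higher and 549 lower, against 2108 in the main setting. All genes gave 4610 calls with no fold change threshold. With 1 horse left out, higher calls ran from 0 to 8, lower from 10 to 20, chemokine from 5 to 10, interleukin from 2 to 8, TNF from 3 to 10 and all genes from 1080 to 2442.

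Of the 24 called genes, 14 were called in every setting with 4 horses, 0.05 and 1 as thresholds that tested them, and none turned direction in any setting. The uncalled genes followed through all settings were those with the highest counts in each class or an absolute log2 fold change over 1. Of these, CCL26 turned to 0.01 with DESeq2 and 0.00 with edgeR, both with the block. With 1 horse left out CCL26 ran from -0.55 to 0.64, CXCL16 from -0.35 to 0.06, and IL15RA from -2.40 to 0.31. ACKR1 turned to 0.24 with DESeq2 and 0.25 with edgeR, both with no block, and with 1 horse left out ran from -2.26 to 0.31, and IL4R from -0.17 to 0.23. These turned without J (CCL26, CXCL16, IL15RA, IL4R), without W (CCL26, ACKR1) or without D (IL4R). Some of the other uncalled genes turned as well. Examples are CXCL6 (to 0.35) and IL22RA1 (to 0.33) without J, CXCL8 (to -0.09) without W and IL12A (to -0.20) without D. Low counts limit CCR7, CCL19, IL2RG and TNFRSF8, whose libraries hold 0 to 101 normalized counts. With pseudocounts of 0.5 and 5 the log2 fold change was -3.53 and -1.93 for CCR7 and -4.47 and -3.00 for CCL11.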
